A study of Mus musculus with 8 samples.

Results

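The matriptase network is a set of serine proteases at the surface of epithelial cells together with the inhibitors that hold them in check. It is described here by 8 genes picked by symbol. These are the proteases St14 (matriptase), Prss8 (prostasin), Tmprss2, Tmprss4, Hpn (hepsin) and Prss22, and the Kunitz-type inhibitors Spint1 and Spint2. All 8 are among the 24346 genes listed in each library, and all 8 passed the filter on genes at 0 in every library, which left 18862 genes tested.

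Adipose-derived stem cells (ADSCs) of wild-type BALB/c mice were sequenced as total RNA after depletion of ribosomal RNA, with 4 libraries from conventional 2D culture, 1 each from mice 2, 3, 4 and 5, and 4 libraries from 3D culture, 1 each from mice 1, 4, 5 and 7. Values per library are given in this order of mice. The cells were primary cultures from the gonadal fat of males 12 weeks old, and each library came from 1 mouse and culture. The 3D cultures grew in Matrigel and were passaged as organoids, whereas the 2D cultures were conventional ones, so that growth in 3D, the matrix and the medium cannot be told apart. The medium and passage of the sequenced cultures are not given in the sources used here.

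In epithelia, matriptase and prostasin activate each other at the membrane, and the inhibitors encoded by Spint1 (HAI-1) and Spint2 (HAI-2) bind the active enzymes and also help to carry matriptase to the surface. The network is known for its role in forming tight epithelial barriers, in activating hepatocyte growth factor and the epithelial sodium channel, and in cutting the receptor PAR2. Fibroblasts and other mesenchymal cells express little of it.

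The 6 proteases share the fold of trypsin, in which a serine cuts the peptide bond. The coding sequence around this serine is shown because it is what makes these membrane and secreted proteins 1 family. Each line gives 30 bases, 5′ to 3′, of the GENCODE M21 transcript named, and the capitals mark the codon of the active-site serine.
St14 (St14-201, codon 805): tgccagggtgacTCTggtggccccttgtca
Prss8 (Prss8-201, codon 238): tgccagggtgacTCTgggggcccactctct
Tmprss2 (Tmprss2-201, codon 439): tgccagggagacAGTggagggccgctggtt
Tmprss4 (Tmprss4-201, codon 385): tgccagggtgacAGTggtgggcctttgatg
Hpn (Hpn-209, codon 352): tgccagggcgacAGTggaggcccctttgtg
Prss22 (Prss22-201, codon 242): tgtctgggcgacTCTgggggtcccctgatg
St14, Prss8 and Prss22 use TCT for this serine, and Tmprss2, Tmprss4 and Hpn use AGT. Of the 30 bases, 25 are the same in Prss8 as in St14, against 23 in Tmprss4, 22 in Hpn, 21 in Prss22 and 20 in Tmprss2.

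The genes lie apart, on 5 chromosomes of GRCm38 (mm10 in the submitters' processing notes). St14 (chr9:31089402-31131853, 19 exons) and Tmprss4 (chr9:45172726-45204092, 13 exons) are on chromosome 9, and Spint2 (chr7:29256323-29281912, 7 exons), Hpn (chr7:31098725-31115290, 13 exons) and Prss8 (chr7:127925716-127930104, 6 exons) on chromosome 7. Spint1 (chr2:119237362-119249527, 10 exons), Tmprss2 (chr16:97564682-97611195, 14 exons) and Prss22 (chr17:23993534-23998100, 6 exons) are each on a chromosome of their own. All but Spint1 are on the minus strand. The spans of Prss8 and Tmprss4 overlap other protein-coding genes of the plus strand. Kat8, which overlaps Prss8, had a mean of 9.13 FPKM in 2D and 9.51 FPKM in 3D, while Prss8 was near 0 in 2D. BC049352, which overlaps Tmprss4, was at or below 0.0846 FPKM in every library. The spans of St14 and Tmprss4 also meet the pseudogene Gm16071 and the antisense gene Gm17099, and how the authors' counting used strand is not given in the sources used here.

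The depth is not stated in the files, and the spacing of low FPKM values gave estimates of 16.4 M to 17.4 M fragments in the 2D libraries and 14.5 M to 15.7 M in the 3D libraries. The cell labels were checked against markers. Of 9 stromal markers, 8 were lower in 3D by limma's adjusted p, the list summed to between 1708 and 3872 FPKM in 2D and between 5.14 and 9.34 FPKM in 3D, and Pdgfrb, Dcn and Lum were at 0 in all 3D libraries. The 5 mesenchymal stem cell markers were mixed. Thy1 and Eng were lower in 3D by limma's adjusted p, with Thy1 at or below 0.0862 FPKM there, and Ly6a was higher, while Cd44, between 52.9 and 89.7 FPKM in 3D, and Nt5e, at or below 0.388 FPKM in 3D, did not pass. The ranges of Ly6a overlapped. It was between 26.0 and 189 FPKM in 2D, at 50.3 FPKM in mouse 1 in 3D, and between 1627 and 2607 FPKM in the other 3D libraries. The 3D cultures thus lacked Pdgfrb, Dcn and nearly all Thy1, but not Ly6a and Cd44. The deposited level of Cd44 was nonetheless lower in every 3D library than in any 2D library, where it lay between 92.7 and 180 FPKM. The stromal marker Twist1, although lower in 3D, was still between 4.99 and 8.35 FPKM there. Lum was already at or below 0.651 FPKM in 2D. Of 8 epithelial markers, 7 were higher in 3D, with summed levels of 1611 to 2188 FPKM against 32.7 to 783 FPKM in 2D. The 2D sums came mostly from the keratins Krt7, Krt8, Krt18 and Krt19, the last also in the mesothelial list. Cdh1, Cldn3, Cldn4 and Esrp1 were at or below 0.725 FPKM in every 2D library. Mesothelial markers of mice 3 and 4 in 2D summed to 562 and 1630 FPKM, against 28.2 and 31.2 FPKM for mice 2 and 5, and between 75.1 and 158 FPKM in 3D, where Krt19 made up most of the sum. The epididymal, endothelial, leukocyte and adipocyte lists summed to at most 38.6 FPKM in any library, the highest sum being of leukocyte markers in 3D. Of these leukocyte markers, Cd68 was higher in 3D (limma's adjusted p = 0.0133), at 6.66 to 32.3 FPKM against 0.562 to 2.86 FPKM in 2D. Csf1r did not pass, and Ptprc, Adgre1 and Itgam were at or below 0.331 FPKM in every library. The 3D library of mouse 1 stood apart from the other 3D libraries on the third principal component of log2(normalized FPKM + 1), at -76.8 against 23.8 to 30.04, a component with 8.57% of the variance. The name of its deposited values also does not state the culture as the others do, and its group was taken from the sample title. The 2D libraries of mice 3 and 4 stood apart from those of mice 2 and 5 on the second component, which holds 9.33%. In these bulk libraries, fewer cells of a type and less RNA per cell cannot be told apart.

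All 8 genes of the network were higher in 3D, and in all 8 the lowest 3D library exceeded the highest 2D library. Summed over the 8 genes, the deposited level was 0.792, 1.55, 3.61 and 0.736 FPKM in 2D, and 604, 593, 597 and 625 FPKM in 3D. By limma's moderated test on quantile normalized log2(FPKM + 1), the adjusted p was below 0.05 for 8 of 8 genes, against 21.2% of all genes tested that were called higher in 3D and 20.3% that were called lower. The libraries of the 2 culture types did not overlap in 8 of 8 genes, against 23.6% of all genes whose 3D libraries all lay above the 2D libraries. The median log2 fold change of the 8 genes was 5.25, or 5.44 with Tmprss4 placed at its lower bound, beside 0.00 over all genes. That bound is on deposited FPKM without a pseudocount, unlike the other fold changes. Ranked by fitted log2 fold change from the highest of the 18862 genes, the 8 genes stood between 20th and 128th. The 8 genes were chosen with earlier results of these data known, so these counts and ranks are a description. Without the 3D library of mouse 1, limma called 8 of 8 genes higher, with log2 fold changes between 4.72 for Hpn and 7.62 for Spint2, and without the 2D libraries of mice 3 and 4 it also called 8 of 8. The epithelial and stromal marker sums given above differ between the same libraries, and their part in these differences was not tested.

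**Figure D1:**
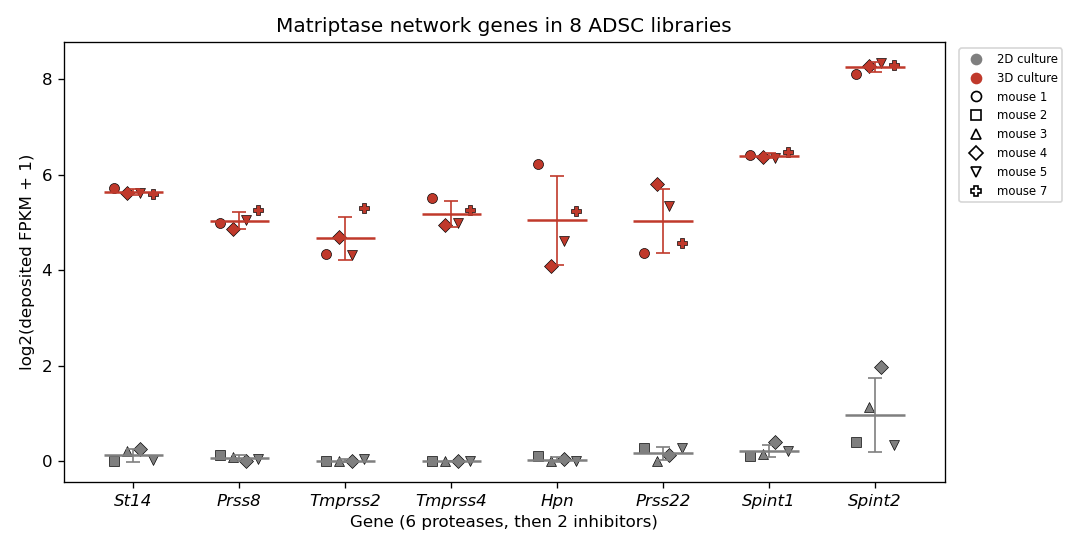
Deposited level of each of the 8 genes in each library, as log2(FPKM + 1) on the vertical axis, with 2D cultures in grey, 3D cultures in red and 1 symbol per mouse. Horizontal lines are means and bars are SDs of 4 libraries, and in every gene the 4 red points lie above the 4 grey points.

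Mice 4 and 5 gave a library of each culture. Within mouse 4, the 8 genes differed between the cultures by 4.11 to 6.53 on the log2 scale of normalized FPKM, and within mouse 5 by 4.30 to 8.22. With the mouse as a block, which rests on these 2 mice and leaves 1 residual degree of freedom, 0 of 8 genes passed, each with a limma adjusted p of 0.111, and 8 of 8 had an unadjusted p below 0.05. In that limma fit 0 genes of all those tested passed, and 5216 had an unadjusted p below 0.05.

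St14 encodes matriptase, the type II transmembrane protease that gives the network its name. It was at 0, 0.160, 0.2001 and 0.0151 FPKM in 2D, and at 51.9, 48.1, 48.1 and 47.2 FPKM in 3D. The 3D libraries were nearly level, and within 2D mice 3 and 4 were the highest. Limma gave a log2 fold change of 5.73 (SE 0.11) at an adjusted p of 4.7e-08. The 3D values rest on an estimated 2271 to 2454 fragments per library, and all 2D libraries together hold about 21 fragments.

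Prss8 encodes prostasin, which is anchored in the membrane by a lipid and works together with matriptase. It was at 0.104, 0.0680, 0 and 0.0351 FPKM in 2D, and at 30.8, 28.1, 32.1 and 37.7 FPKM in 3D. Mouse 7 was the highest in 3D, and the 2D values correspond to about 6 fragments in all. The fitted difference on the log2 scale was 5.09 with an SE of 0.14 (limma, adjusted p = 3.5e-07). The ratio of Prss8 to St14 within a 3D library was 0.661 ± 0.0997 (SD, n = 4).

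Tmprss2 and Tmprss4 encode further type II transmembrane serine proteases, both typical of epithelia. Tmprss2 was at 0 in the 2D libraries of mice 2, 3 and 4 and at 0.0390 FPKM in that of mouse 5, and at 19.4, 24.8, 19.1 and 38.6 FPKM in 3D. The single 2D value corresponds to about 2 fragments, and the ratio of sequenced fragments, scaled by depth, between the cultures was 2745 with an exact 95% counting interval of 760 to 22676. On the log2 scale the fitted difference was 4.75 (SE 0.26), with an adjusted p of 8.2e-06 by limma.

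Tmprss4 had no signal in 2D, where all 4 values were 0, and stood at 44.9, 29.98, 30.8 and 37.4 FPKM in 3D. Its mean 3D level was at least 448-fold higher, taking 3 fragments per library as the limit in 2D. The fitted log2 fold change of 5.35 (SE 0.16, adjusted p = 5.3e-07 by limma) depends on the pseudocount of 1 and is no bound.

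Hpn encodes hepsin, a type II transmembrane protease known from liver and kidney tubules. It was at 0.0750, 0, 0.0357 and 0 FPKM in 2D, and at 74.4, 16.1, 23.4 and 37.0 FPKM in 3D. The 3D level of mouse 1 was 4.64-fold that of mouse 4, the widest spread among the 8 genes. Limma gave a log2 fold change of 5.15 (SE 0.47) at an adjusted p of 1.1e-04, and without the 3D library of mouse 1 it was 4.72. The 2D libraries hold about 3 fragments of it in all, and the same ratio was 1480 with an exact 95% counting interval of 506 to 7178. The 3D library of mouse 1 also had the highest sum of the 7 epididymal markers, 7.57 FPKM against 0.130 to 0.931 FPKM in the other 3D libraries. This sum came mostly from Crisp1 (4.21 FPKM) and Adam28 (2.57 FPKM). Lcn5 and Adam7 were at 0 in all libraries, and Gpx5 and Lcn8 were at 0 in the 3D library of mouse 1. The part of this sum in the level of Hpn was not tested. These intervals and limits cover counting error only.

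Prss22 encodes a tryptase-like protease of epithelia. It was at 0.208, 0, 0.0987 and 0.209 FPKM in 2D, and at 19.8, 55.0, 39.8 and 22.9 FPKM in 3D. In 3D mouse 4 was the highest and mouse 1 the lowest, with a highest over lowest level of 2.79. Without mouse 1, which sets the low end, the level in 3D lay between 22.9 and 55.0 FPKM, and the log2 fold change became 5.23. The fitted difference on the log2 scale was 4.94 with an SE of 0.36 (limma, adjusted p = 3.9e-05).

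Spint1 encodes HAI-1, a transmembrane inhibitor of matriptase, prostasin and hepsin. It was at 0.0832, 0.108, 0.317 and 0.168 FPKM in 2D, and at 84.8, 81.6, 81.2 and 87.9 FPKM in 3D. The 3D libraries differed by at most 1.08-fold. On the log2 scale the fitted difference was 6.46 (SE 0.09), with an adjusted p of 1.6e-08 by limma.

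Spint2 encodes HAI-2, a related inhibitor of the same proteases. It was at 0.322, 1.21, 2.96 and 0.270 FPKM in 2D, and at 277, 310, 322 and 316 FPKM in 3D. It was the most abundant of the 8 genes in either culture, and it had the highest log2 fold change, 7.50 (SE 0.32, adjusted p = 2.5e-06 by limma). Its 2D level was highest in mice 3 and 4, as that of St14 was. These are the 2D libraries with the higher sums of epithelial markers (193 and 783 FPKM, against 32.7 and 33.9 FPKM in mice 2 and 5) and of mesothelial markers. The epithelial sums in mice 3 and 4 were mostly keratins, with Cdh1 at 0.343 and 0.725 FPKM and Esrp1 at 0. The part of these markers in the 2D levels was not tested. The lowest 3D library lay 93.9-fold above the highest 2D library.

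In the 3D cultures the transcripts of the inhibitors were more abundant than those of the proteases. On the FPKM scale, which accounts for gene length, the mean levels in 3D were 306 ± 19.9 for Spint2, 83.9 ± 3.15 for Spint1, 48.8 ± 2.11 for St14, 37.7 ± 26.0 for Hpn, 35.8 ± 6.92 for Tmprss4, 34.4 ± 16.3 for Prss22, 32.2 ± 4.06 for Prss8 and 25.5 ± 9.13 for Tmprss2 (SD, n = 4). The ranges of Spint2, Spint1 and St14 did not overlap from one to the next. From St14 downwards the ranges of each pair of neighbours overlapped, so that the order of St14 and Hpn, and that among the genes below St14, did not exceed the spread between libraries. The range of St14, 47.2 to 51.9 FPKM, overlapped those of Hpn and Prss22 but lay above those of Tmprss4, Prss8 and Tmprss2.

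**Figure D2:**
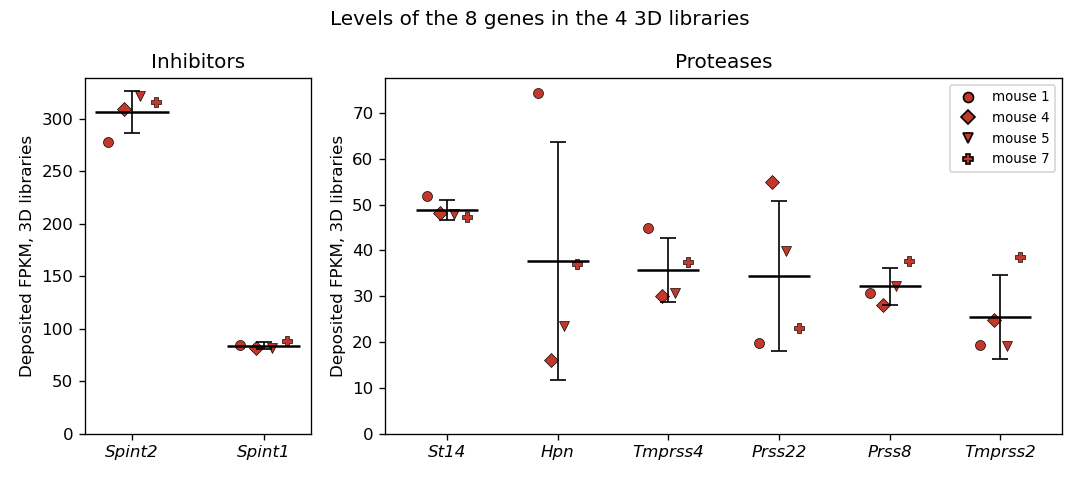
Deposited FPKM of the 2 inhibitors (left) and the 6 proteases (right) in the 3D libraries of mice 1, 4, 5 and 7, with the mean (line) and SD (bar) of 4 libraries on linear axes that start at 0. St14 and Spint1 are nearly level between mice, whereas Hpn ranges from 16.1 to 74.4 FPKM and Prss22 from 19.8 to 55.0 FPKM.

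The genes differed in how far they varied between the 3D cultures. Among the 6709 genes averaging 10 FPKM or more in 3D, the SD of log2(normalized FPKM + 1) over the 3D libraries was smaller than that of St14 for 3.34% of genes and smaller than that of Spint1 for 4.58%. It was smaller than that of Spint2 for 28.5%, of Prss8 for 47.5% and of Tmprss4 for 66.7%. For Tmprss2, Prss22 and Hpn these shares were 86.4%, 91.7% and 94.9%. Matriptase and its inhibitor HAI-1 were thus among the steadier genes of the 3D cultures, and hepsin and Prss22 among the more variable ones.

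Ratios between genes within a library describe the balance of inhibitor and protease transcripts. The proteins and their activity were not measured in these data. The ratio of Spint1 to St14 was 1.63, 1.70, 1.69 and 1.86 in the 3D libraries of mice 1, 4, 5 and 7, and that of Spint2 to St14 was 5.34, 6.44, 6.71 and 6.70. The sum of both inhibitors over the sum of the 6 proteases was between 1.502, in mouse 1, and 2.09, in mouse 5. In contrast, the ratio of Hpn to Prss22 was 3.77, 0.292, 0.587 and 1.61 in mice 1, 4, 5 and 7, so that mouse 1 sets its upper end. The order of the 4 mice was the same for Hpn and Tmprss4 (mouse 1, then 7, 5 and 4) and the reverse for Prss22, which is a description of 4 libraries and was not tested. In 2D the sum of both inhibitors over that of the proteases was 1.05, 5.77, 9.79 and 1.47, in the order of mice given above. It was higher in mice 3 and 4, in which Spint2 rests on about 28.4 and 71.2 fragments, against 7.44 and 6.15 in mice 2 and 5. Each protease rests on at most 11.3 fragments in any 2D library, so these ratios are imprecise.

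**Figure D3:**
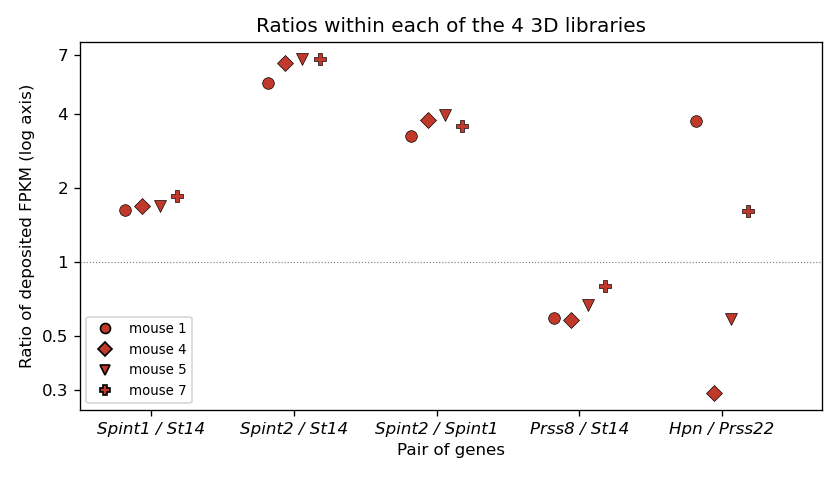
Ratio of deposited FPKM between 5 pairs of genes within each 3D library, on a log axis with 1 symbol per mouse and a dotted line at a ratio of 1. The ratios of the inhibitors to St14 lie close together, and that of Hpn to Prss22 runs from 0.292 in mouse 4 to 3.77 in mouse 1.

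The genes most like St14 over the 8 libraries were sought among 12582 other genes whose mean normalized FPKM was 1 or more. The 5 genes with the highest Pearson's r of log2(normalized FPKM + 1) were Kdf1, Tc2n, Spint1, Ap1m2 and Ocln, with r between 0.9992 and 0.9995. Ocln encodes the tight junction protein occludin, and Ap1m2 a clathrin adaptor subunit of epithelial cells. Of the network, Tmprss4 ranked 35th, Prss8 45th, Spint2 99th, Tmprss2 216th, Prss22 457th and Hpn 588th. In all, 201 genes had an r above 0.99. The 8 libraries share the difference between the cultures, and these values are given as a description.

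The sequences before the start sites are shown for members that rose together. RefSeq promoters (GRCm38.p6) were matched for 4 of the 8 genes, Spint1, Spint2, Tmprss2 and Hpn, the last with 2 start sites, and not for St14, Prss8, Tmprss4 and Prss22. Each line below gives the 250 bases before a start site, 5′ to 3′ on the strand of the gene, with matches to the searched motifs in capitals.
Spint1 (chr2:119237110-119237359, plus strand): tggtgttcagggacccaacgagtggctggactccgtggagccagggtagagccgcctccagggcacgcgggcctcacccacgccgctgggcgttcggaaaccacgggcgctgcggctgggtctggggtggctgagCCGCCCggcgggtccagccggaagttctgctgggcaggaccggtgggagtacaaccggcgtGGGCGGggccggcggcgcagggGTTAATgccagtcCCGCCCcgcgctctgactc
Spint2 (chr7:29281978-29282227, minus strand): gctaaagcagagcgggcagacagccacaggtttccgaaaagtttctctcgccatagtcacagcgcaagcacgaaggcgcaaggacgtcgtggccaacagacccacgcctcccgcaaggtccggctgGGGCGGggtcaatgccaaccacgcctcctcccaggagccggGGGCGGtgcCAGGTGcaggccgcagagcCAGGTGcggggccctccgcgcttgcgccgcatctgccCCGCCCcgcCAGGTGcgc
Hpn (chr7:31115327-31115576, minus strand): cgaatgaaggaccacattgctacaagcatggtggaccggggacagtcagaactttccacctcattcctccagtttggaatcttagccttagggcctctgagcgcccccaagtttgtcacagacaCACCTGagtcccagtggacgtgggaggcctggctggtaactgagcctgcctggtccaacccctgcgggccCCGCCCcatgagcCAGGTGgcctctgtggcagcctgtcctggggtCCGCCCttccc

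The motifs were searched on both strands, and no match shown overlaps another. The GC box GGGCGG, found in 32.7% of the 32851 promoters of this length, had 3 matches each in Spint1 and Spint2 and 2 in the promoter of Hpn shown. CACCTG, the E-box that Snail and Zeb factors recognise, was in 17.2% of promoters and had 3 matches in Spint2, starting 74, 55 and 9 bases before the start, and 2 in Hpn. GTTAAT, part of the HNF1 motif, was in 6.43% of promoters and had 1 match in Spint1. There was no match in the other 4 motifs, which were AACNGGTT of the grainyhead-like factors (1.79% of promoters), TATAAA (12.4%), TGANTCA of AP-1 (6.75%) and TGTTTAC of the forkhead factors (3.17%). Neither Tmprss2 nor the second start site of Hpn had a match to any of the 7 motifs. The GC content was 72.8% for Spint1, 69.6% for Spint2 and 61.6% for Tmprss2 and the Hpn promoter shown, beside a median of 52.4% over all promoters.

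Other proteases of the same families were low in both cultures. Of 13 further type II transmembrane serine proteases, 4 were at 0 in every library and 9 were tested. By limma's adjusted p 1 was higher in 3D and 0 were lower, against 21.2% and 20.3% of all genes tested. The gene called was Tmprss13 (adjusted p = 0.0229 by limma). It was at no more than 0.0190 FPKM in 2D and between 0.281 and 1.66 FPKM in 3D. Its call was lost without the 2D library of mouse 2 or the 3D library of mouse 1, and over 13 alternatives limma's adjusted p lay between 0.00188 and 0.102. Tmprss11g, named after its values were seen, reached 3.48 FPKM in mouse 1 in 3D and was at or below 0.0462 FPKM in the other libraries, with a limma adjusted p of 0.378. The summed level of the 13 genes was at most 5.66 FPKM in any library, against 593 FPKM or more for the 8 genes of the network in 3D.

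Of 12 further tryptase-family genes, relatives of Prss22, 6 were at 0 in every library. In the other 6, limma called 0 genes in either direction, against 21.2% of all genes tested called higher and 20.3% called lower. Of the 6, 1 had an unadjusted p below 0.05. That gene, Prss33, was at 0 in 2D and at or below 0.106 FPKM in 3D, and it passed without the 3D library of mouse 1 (adjusted p = 0.00853 by limma). Their summed level was at most 1.48 FPKM in any library.

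Among 11 other genes with a Kunitz inhibitor domain, 9 were tested, of which 3 were higher and 2 lower in 3D by limma's adjusted p. Over all genes tested 21.2% were higher and 20.3% lower, so that these counts are not far from the background. The list had a median of 0.24 in log2 fold change. The amyloid precursor relative Aplp2 rose from 101 ± 30.2 to 370.3 ± 60.9 FPKM (SD, n = 4), by 2.45 (SE 0.25) in log2 units at an adjusted p of 1.8e-04 from limma. Papln, a matrix protein, rose from 0.285 ± 0.275 to 6.08 ± 3.35 FPKM (SD, n = 4; limma's adjusted p = 0.00221). Tfpi, the tissue factor pathway inhibitor of coagulation, fell from 57.7 ± 19.7 to between 0 and 5.79 FPKM (limma's adjusted p = 4.1e-04). Tfpi2 fell from between 1.39 and 18.2 FPKM in 2D to 0 in every 3D library (limma's adjusted p = 0.00518). App, also named after its values were seen, at 439 ± 153 FPKM in 2D and 542 ± 169 FPKM in 3D, did not pass (limma's adjusted p = 0.0757), but did without the 2D library of mouse 3 (0.0298) and without those of mice 3 and 4 (0.00734).

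Of 3 serpins that inhibit these proteases, Serpina5 was at 0 in every library. Serpinc1, antithrombin, passed (adjusted p = 0.0269 by limma) but was at or below 0.190 FPKM in every library. Its call was lost without each of the 2D libraries of mice 2, 4 and 5 and the 3D libraries of mice 4, 5 and 7, with adjusted p-values of up to 0.0690. Serpine2, named after its values were seen, was at 6.63 ± 2.80 FPKM in 2D and between 3.35 and 27.6 FPKM in 3D (limma's adjusted p = 0.922).

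Substrates and receptors of the network were also mostly higher in 3D. Of 13 such genes, all tested, 10 were higher and 1 was lower by limma's adjusted p, against the 21.2% and 20.3% of all genes. The list was written with earlier results of these data known, so these counts are a description. The median was 1.71 in log2 fold change, or 2.17 with Scnn1g at its bound. That bound is on deposited FPKM without a pseudocount, unlike the other values, and moves Scnn1g from 0.28 to 2.17. Epcam, whose product matriptase cuts at the cell surface, was at or below 0.0310 FPKM in 2D and at 283 ± 92.6 FPKM (SD, n = 4) in 3D, which differ by 8.37 (SE 0.19) in log2 units at an adjusted p of 1.1e-07 from limma. For the EpCAM protein, the paper reports by Western blot a decrease in the organoid cultures, although it found more of the mRNA there. The rise given here is of RNA only. Cldn7, a claudin that binds the product of Epcam, was at 95.5 ± 7.62 FPKM (SD, n = 4) in 3D and at or below 0.151 FPKM in 2D. Met, the receptor of hepatocyte growth factor, rose from 12.3 ± 8.75 to 106 ± 39.1 FPKM (SD, n = 4), by 3.44 (SE 0.49) in log2 units at an adjusted p of 0.00104 from limma.

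The further genes of this list, other than Plau, are named after their values were seen. Hgf, the growth factor that matriptase, hepsin and the HGF activator cut into its active form, was the gene that fell. It was at 3.40, 3.23, 8.13 and 2.89 FPKM in 2D, and at 0, 0.193, 1.43 and 0.211 FPKM in 3D (limma's adjusted p = 0.00203). Hgfac, which encodes the HGF activator, was at or below 0.0916 FPKM in 2D and at 68.5, 76.2, 34.5 and 7.28 FPKM in 3D, and limma gave it a log2 fold change of 5.20 (SE 0.74) at an adjusted p of 0.00104. F2rl1, which encodes PAR2, rose from between 0.0642 and 2.35 FPKM in 2D to between 18.2 and 86.7 FPKM in 3D (limma's adjusted p = 6.1e-04). Cdcp1, a surface protein cut by these proteases, was at 42.5 ± 12.9 FPKM (SD, n = 4) in 3D and at or below 0.0305 FPKM in 2D.

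The subunits of the epithelial sodium channel were low. Scnn1a was between 2.14 and 9.78 FPKM in 3D and at or below 0.709 FPKM in 2D (limma's adjusted p = 0.0129), and Scnn1g was at 0 in 2D and at or below 0.616 FPKM in 3D (limma's adjusted p = 0.0169, or 0.0843 without the 2D libraries of mice 3 and 4). Scnn1b (adjusted p = 0.0878 by limma) reached 4.04 FPKM in mouse 1 in 3D and was at or below 0.922 FPKM in the other 3D libraries, and without mouse 1 it passed (adjusted p = 0.0149 by limma). Mst1r, the receptor of macrophage-stimulating protein, stood in 2D at 12.5 FPKM in mouse 3 and 17.4 FPKM in mouse 4, and at or below 0.701 FPKM in the other libraries, with a limma adjusted p of 0.170. Mst1 (adjusted p = 0.0444 by limma) and Plau (adjusted p = 0.0484 by limma) passed, although for both genes the ranges of 2D and 3D overlapped. Mst1 was lost without each of the 2D libraries of mice 2, 3 and 5 and the 3D libraries of mice 1 and 4, with adjusted p-values of up to 0.104, and Plau was lost without any 1 of the libraries other than the 3D library of mouse 1.

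**Figure D4:**
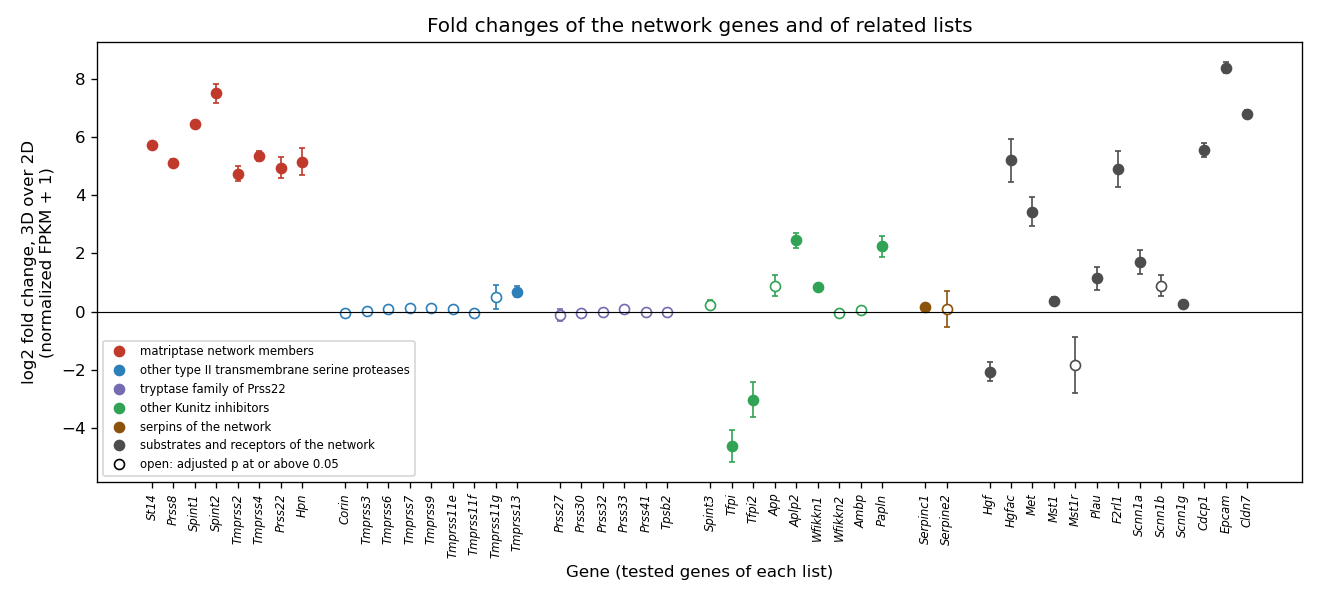
Fitted log2 fold change (3D over 2D, on normalized FPKM + 1) of every tested gene of the network and of 5 related lists, with standard errors as bars. Filled points have a limma adjusted p below 0.05. The 8 genes of the network lie between 4.75 and 7.50, the further type II and tryptase-family proteases lie near 0, and Hgf, Tfpi and Tfpi2 lie below 0.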

How the data were processed

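RNA of 8 ADSC cultures was analysed, 4 in 2D and 4 in 3D, grouped by their titles. The name of the values deposited for the 3D culture of mouse 1 does not state the culture. The authors removed adapters and low-quality reads from the data of directional libraries (FASTX_Trimmer, BBMap), aligned the rest by TopHat (mm10 per the submitters' processing notes) and computed the deposited FPKM values per gene with Cufflinks. The annotation and the strand setting are not given in the sources used here. Read counts were not used here. The deposited values are not quantile normalized, since their upper quartiles range from 10.7 to 11.4 FPKM.

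Genes at 0 in every library (5484) were left out. The values of 18862 genes were quantile normalized, as in the study's methods, and fitted as log2(FPKM + 1) with limma 3.58.1 in R 4.3.3, with an intensity trend and no covariates. Adjusted p-values are Benjamini-Hochberg values over all genes tested. Levels are deposited FPKM unless called normalized; fold changes are on the log2 scale of normalized FPKM + 1, which understates low genes. The fit was tested on simulated data.

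Mice 4 and 5 pair the cultures because both libraries came from the same animal. In 12577 genes averaging 1 FPKM or more, the deviations of the paired libraries from their culture means correlated at -0.05 and -0.11.

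Depth was estimated from 875 genes for which GENCODE M21 lists 1 transcript, 3000 nt or longer (between 73.4% and 86.6% of low values per library within 0.2 of a whole number of fragments). Fragments of a member are its FPKM times the length of its principal transcript times this depth. Promoters are from RefSeq (GRCm38.p6).

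The members and lists were chosen with earlier results of these data known, and 1 gene of the list of substrates and receptors is not reported here and is left out of that list's counts. Named in the text are the 8 members and, in each related list, up to 4 called genes with the highest mean, besides those said to be named after their values were seen. The alternatives were values as deposited, no intensity trend, a minimum mean of 1 FPKM, no filter, the mouse as a block, a pseudocount of 0.1 and each library left out; leaving out the 2D libraries of mice 3 and 4 together was chosen after seeing the data.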

Additional observations from a re-analysis of the deposited data

Results flagged for a closer look

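Within the 2D libraries, Tmprss2 in mouse 5 stood at 0.0390 FPKM, apart from 0 in the other 3 libraries, by Dixon's criterion for 4 samples. The value corresponds to about 2 fragments. With the other 3 libraries at 0, any value above 0 would have been flagged, so the flag carries no weight. Of 15 groups of 4 libraries tested, 1 was flagged. The usual chance rate of about 1 in 20 is for continuous values and cannot be applied to counts this low.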

How the results depend on the processing

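The count of 8 members called higher in 3D was 8 under every alternative except the mouse as a replicate block, where it was 0. Under that block the related lists also went from 15 genes called higher and 3 called lower to 0 and 0, while 14 and 2 of their genes had an unadjusted p below 0.05. The block leaves 1 residual degree of freedom and calls 0 of all 18862 genes. With each library left out in turn, the members called stayed at 8, the list genes called higher were between 11 and 15, and those called lower stayed at 3. Over the other 14 alternatives the adjusted p of each member stayed below 0.05, the highest being 0.00219 for Hpn without the 2D libraries of mice 3 and 4, an alternative chosen after seeing the data. The log2 fold changes of the members depend on the pseudocount, lying between 7.18 and 8.64 at 0.1. Without quantile normalization they were between 4.66 and 7.29. No fold change of a called gene changed its sign in 386 combinations of gene and alternative. At the 16.4 M to 17.4 M fragments estimated for 2D, the 2D levels of Prss8, Tmprss2, Tmprss4, Prss22 and Hpn rest on 11 fragments or fewer in all, so differences between the 2D libraries in these genes were not detectable at this depth.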
